A study of Homo sapiens with 8 samples.

Results

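FLNA is the gene of filamin A, and the members described here are the binding sites of G3BP1 on its mRNA. They were chosen by position, as the minus-strand peaks that lie whole inside chrX:153576800-153603100 (hg19), the stretch that holds FLNA. This gave 115 of 4346 peaks, 72 of 2925 in the PDS list and 43 of 1421 in the Ctrl list. FLNA was chosen because it had most peaks in both lists, so its peak counts and the fold values of its peaks are given as a description, without a test. The assay was seCLIP, a single-end form of enhanced crosslinking and immunoprecipitation, and the cells were HEK293T, an established line derived from human embryonic kidney. RNA bound to a protein is crosslinked to it and recovered with an antibody, and its fragments are sequenced beside an input library of the same lysate. Cells in the PDS groups were given 20 µM PDS for 12 h before UV crosslinking, and cells in the Ctrl groups were left untreated. Each condition had 2 libraries made with an antibody to G3BP1 (IP) and 2 input libraries made without it, which gives 8 libraries in 4 groups of 2. The labels do not write PDS out; in quadruplex research it commonly stands for pyridostatin, a ligand of these structures.

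Filamin A is a large cytoskeletal protein. An actin-binding region at one end and a long rod of immunoglobulin-like repeats let its dimers crosslink actin filaments into a network, and the rod also docks membrane receptors such as integrins and many signalling proteins. Its gene lies on the X chromosome and is split into many exons, and human mutations in it disturb neuronal migration and the development of heart valves and skeleton. G3BP1 is a cytoplasmic RNA-binding protein best known for nucleating stress granules, the assemblies of untranslated mRNA and protein that form in stressed cells. Guanine quadruplexes are folds of guanine-rich RNA or DNA in which planes of guanines stack on each other.

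Every value of a peak below is the authors' own, 1 value for both replicates together. The log2 fold is read as the enrichment of IP over input in the peak, and the −log10 p as the strength of the evidence for that enrichment. A −log10 p of 400 is read as a stand-in for values too large to be computed, since no other value exceeded 87.9. No value exists per replicate, so no difference between the conditions can be set against replicate spread. The read depth behind a peak is unknown, and the binomial intervals beside shares cover counting error alone, with neighbouring peaks not independent of each other. In bulk lysates, fewer cells with bound FLNA mRNA and less bound mRNA per cell cannot be told apart.

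The members spread over 19209 nt of genome, from the 3′-most edge at position 153577052 to the 5′-most edge at 153596260. FLNA is read from the minus strand, so higher positions lie towards its 5′ end. The chosen stretch ran on for 6840 nt beyond the 5′-most peak and for 251 nt beyond the 3′-most peak without a peak in either list. The choice of borders decided no member. No peak crossed either border, and the nearest minus-strand peaks outside lay 609286 nt (PDS list, log2 fold 3.42) and 357052 nt (Ctrl list, log2 fold 3.08) further along at lower positions. The plus strand of the stretch held 0 peaks in both lists. RefSeq lists 0 other genes that overlap FLNA, and EMD, which encodes the nuclear membrane protein emerin, as the next gene beyond its 5′ end. Exons and introns of hg19 were not used here, so distances are in genomic nt with introns included.

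**Figure D1:**
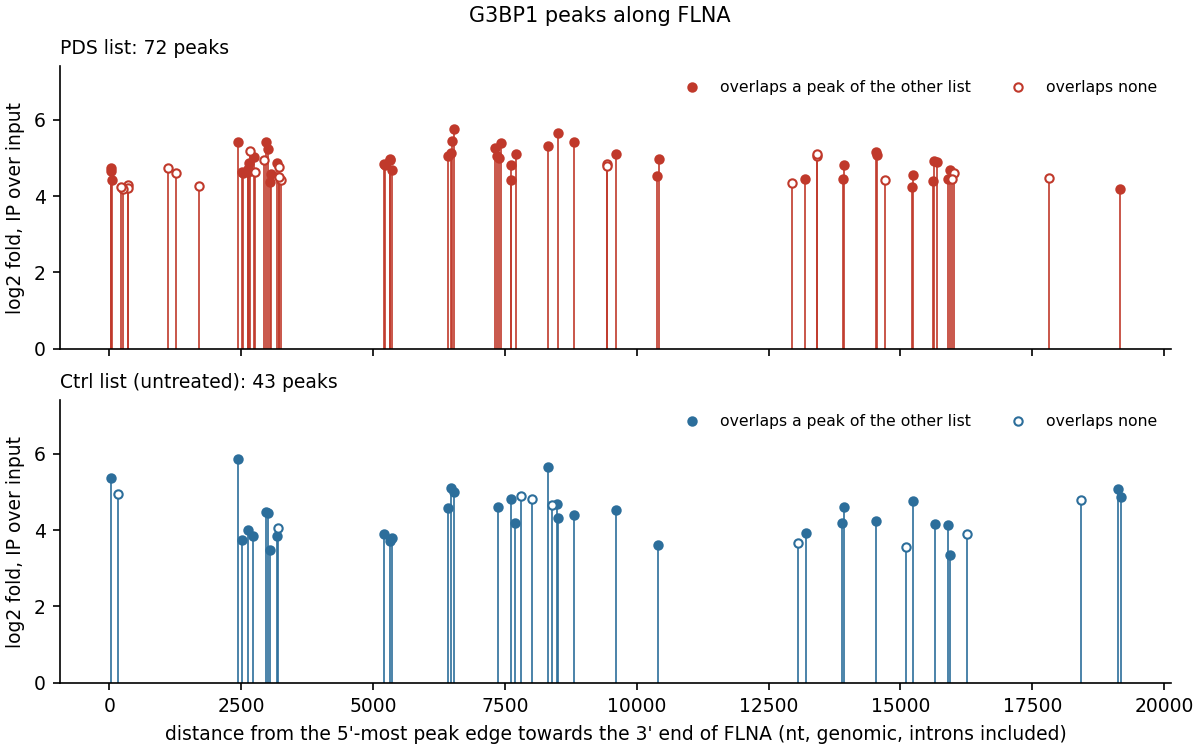
G3BP1 peaks along FLNA, drawn at their midpoints by distance from the 5′-most peak edge (x axis, nt), with the log2 fold of IP over input on the y axis, for the PDS list (top, 72 peaks) and the Ctrl list (bottom, 43 peaks). Filled points overlap a peak of the other list and open points do not. Most groups of peaks appear in both lists, some PDS groups near the 5′ end have no Ctrl peak beside them, and none of the PDS peaks lies under a log2 fold of 4.

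Peaks on FLNA were strongly enriched under both conditions. The log2 fold of the 72 PDS peaks ran between 4.18 and 5.76 with a median of 4.77, and that of the 43 Ctrl peaks ran between 3.36 and 5.85 with a median of 4.40. The ranges overlapped, and the highest single value belonged to the Ctrl list. Over all other peaks the medians were 3.58 in the PDS list and 3.51 in the Ctrl list. All 72 PDS peaks reached a log2 fold of 4, a level that 27.6% of the whole PDS list reached. In the Ctrl list 30 of 43 did so (69.8%, exact 95% interval 53.9 to 82.8%), beside 22% of the whole list. A log2 fold of 5 was reached by 21 PDS peaks and 6 Ctrl peaks, 29.2% and 14.0% of the members, beside 3.59% and 2.67% of the lists. FLNA thus held 20% of the 105 PDS peaks and 15.8% of the 38 Ctrl peaks at that level. Since these values come from the lists that led to the choice of FLNA, they describe it and test nothing.

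The lower end of the PDS values stood well clear of the limit of the list. The lowest peak of the whole PDS list had a log2 fold just above 3, and the 2 weakest PDS members had 4.18 and 4.19. For a wider comparison, same-strand peaks separated by at most 10000 nt were grouped into 1192 loci over both lists, of which 17 held at least 10 peaks in each list. Among these 17 loci FLNA had the highest of the weakest PDS peaks, and the next highest was 3.93. By median log2 fold FLNA ranked 3 in the PDS list and 1 in the Ctrl list. Its difference in medians, PDS minus Ctrl, was 0.37, which was the middle value of the 17 loci, whose differences ran between -0.47 and 1.48. The difference was above 0 in 13 of the 17. With a stricter threshold in both lists (log2 fold of at least 4 and −log10 p of at least 5) the difference of FLNA was 0.13. FLNA thus stood in the middle of these loci by its difference and at their top by its level in untreated cells.

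**Figure D2:**
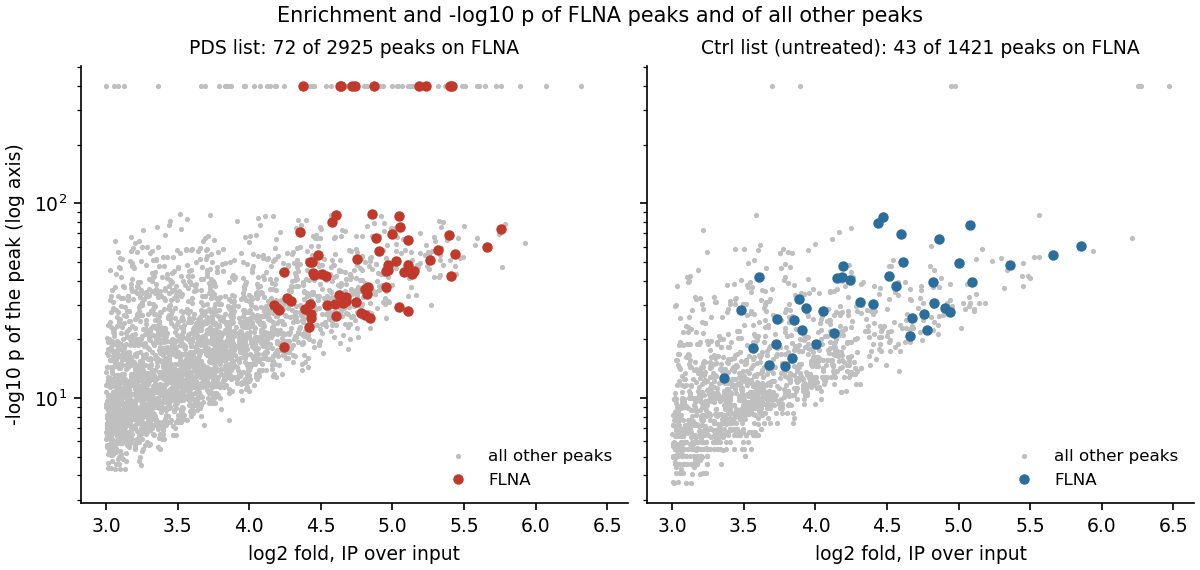
The log2 fold of each peak (x axis) against its −log10 p (y axis, log scale) for the PDS list (left) and the Ctrl list (right), with FLNA peaks in colour and all other peaks in grey. The row of points at 400 holds the stand-in values, 10 of them on FLNA in the PDS list and 0 in the Ctrl list.

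The −log10 p of FLNA peaks was also high. It had a median of 44.5 in the PDS list (18.3 to 400) and of 30.9 in the Ctrl list (12.7 to 84.9), beside 17.4 and 11.7 over all other peaks. Part of this goes with the fold, so peaks were also set side by side within bins of 0.5 in log2 fold. Between 4 and 4.5, 19 PDS members had a median −log10 p of 31.4 beside 25.2 for 439 other PDS peaks, and 11 Ctrl members had 40.3 beside 18.7 for 183 other Ctrl peaks. Between 4.5 and 5 the medians were 42.7 for 32 PDS members beside 36.3 for the others, and 30.9 for 13 Ctrl members beside 26.9. Between 5 and 5.5 the PDS members were no higher than the others, at 55.0 beside 55.9, and the 4 Ctrl members had 48.7 beside 36.8. Between 5.5 and 6 the 2 PDS members were lower, at 66.5 beside the stand-in 400 for 13 others, and the 2 Ctrl members had 57.4 beside 54.9 for 4 others. Below 4 there were 0 PDS members; the 11 Ctrl members between 3.5 and 4 had 22.3 beside 12.3, and the 2 between 3 and 3.5 had 20.4 beside 8.37. At the same fold, a larger −log10 p goes with more reads in the peak, but read counts were not analysed here.

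More peaks lay on FLNA in the PDS list, yet they covered nearly the same number of separate places. The ratio of PDS to Ctrl peaks was 1.67 on FLNA and 2.07 over all other peaks. After peaks of a list within 50 nt of each other were merged, 32 PDS regions and 30 Ctrl regions remained, a ratio of 1.07, beside 1.75 elsewhere. The covered length was 2099 nt in the PDS list and 1749 nt in the Ctrl list, a ratio of 1.20, beside 1.75 elsewhere. Counting peaks, regions or nt thus gave different sizes for the same comparison. More peaks without many more places were not particular to FLNA. The chromosome 8 and chromosome 3 loci described below also had more PDS than Ctrl peaks. Their ratios of merged regions were 0.73 and 1.1, and their ratios of covered length were 1.04 and 1.24.

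The extra PDS peaks were largely short pieces that touch each other. On FLNA 32 of 72 PDS peaks (44.4%, exact 95% interval 32.7 to 56.6%) began at the border of the peak before, beside 23.7% of the whole PDS list, against 6 of 43 Ctrl peaks (14.0%, 5.30 to 27.9%) beside 11.1% of the whole Ctrl list. Runs of touching peaks numbered 21 in the PDS list and took in 53 of its peaks, against 6 runs with 12 peaks in the Ctrl list. The longest PDS run had 5 peaks and all Ctrl runs had 2. Touching PDS peaks were not particular to FLNA. In the chromosome 8 locus described below, 50% of PDS peaks and 3.1% of Ctrl peaks touched the peak before. In the chromosome 3 locus the shares were 34.1% and 14.8%. Members were narrow, with a median width of 24 nt in the PDS list and 39 nt in the Ctrl list, against 64 and 76 nt for all other peaks. Under 20 nt wide were 31 PDS members (43.1%), beside 14.7% of the whole PDS list, and 9 Ctrl members (20.9%), beside 6.47% of the whole Ctrl list. Without these narrow peaks 41 PDS and 34 Ctrl members were left, a ratio of 1.21.

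Most FLNA sites were found under both conditions. A Ctrl peak was met, by at least 1 nt, by 50 of the 72 PDS members (69.4%, exact 95% interval 57.5 to 79.8%), where 30.6% of the whole PDS list did so. A PDS peak was met by 34 of the 43 Ctrl members (79.1%, 64.0 to 90.0%), beside 51.5% of the whole Ctrl list. The 1272 nt covered in both lists made up 60.6% of the PDS length and 72.7% of the Ctrl length on FLNA, against 24.0% and 42.0% elsewhere. Overlap above that elsewhere was not particular to FLNA. The same shares of length were 50.8% and 52.8% in the chromosome 8 locus described below, and 45.6% and 56.6% in the chromosome 3 locus. The share depended on the definition of overlap: when each peak had to cover at least 50% of the other, 29.2% of PDS and 48.8% of Ctrl members were shared.

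A single Ctrl peak was often matched by several PDS pieces. Of the Ctrl members, 18 met 1 PDS peak, 12 met 2, 3 met 3 and 1 met 4. Of the PDS members, 45 met 1 Ctrl peak and 5 met 2. Partner counts are not given here for the whole lists, so these cannot be read as particular to FLNA. The Ctrl peak at chrX:153588821-153588946 is the one matched by 4. The 4 touching PDS peaks, at chrX:153588811-153588946, had a log2 fold between 5.00 and 5.40, all above the 4.60 of the Ctrl peak. At chrX:153593083-153593087 both lists held a peak with identical borders, 5 nt wide, with a log2 fold of 4.86 in the PDS list and 3.85 in the Ctrl list. It was 1 of 6 peaks with identical borders in the whole series. Another 3 pairs of 5′ borders and 4 pairs of 3′ borders on FLNA coincided to the nt.

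In 12 places exactly 1 PDS peak met exactly 1 Ctrl peak, so that their log2 folds could be set side by side. The borders of most pairs differed, with widths such as 30 nt in PDS and 8 nt in Ctrl. Each value thus belongs to its own interval. The PDS value was higher in 10 of these 12 pairs, beside 62% of all 410 such pairs of the series. The median difference in log2 fold, PDS minus Ctrl, was 0.74 on FLNA (quartiles 0.44 and 1.01) and 0.14 over the 398 pairs elsewhere (quartiles -0.22 and 0.58). With the stricter threshold 7 pairs were left, 5 of them higher in PDS, with a median difference of 0.48. In 11 of the 12 pairs the midpoints were at most 10 nt apart, and their median distance was 4 nt. Elsewhere 239 of the 398 pairs were that close, with a median of 7.5 nt. Peaks on FLNA were narrower, which by itself limits how far apart the midpoints of overlapping peaks can lie. The largest difference was 1.32, at chrX:153580318-153580335, with a log2 fold of 4.68 in PDS and 3.36 in Ctrl, the lowest Ctrl value on FLNA. Next came chrX:153593506-153593541, with 5.03 in PDS and 3.83 in Ctrl, and chrX:153587422-153587487, with 5.41 in PDS and 4.40 in Ctrl.

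The 2 pairs with a lower PDS value held the 2 strongest Ctrl peaks on FLNA. At chrX:153593785-153593854, the strongest Ctrl member, the PDS peak had a log2 fold of 5.40 and the Ctrl peak 5.85, rank 7 in its list, a difference of -0.45. At chrX:153587904-153587987 the PDS peak had a log2 fold of 5.32 and the Ctrl peak 5.66, a difference of -0.34. The smallest positive difference was 0.30, at chrX:153580336-153580379. A very high Ctrl value by itself makes a lower PDS value in the pair more likely. The 12 pairs had been selected by their overlap, and pairs on 1 transcript share their libraries.

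**Figure D3:**
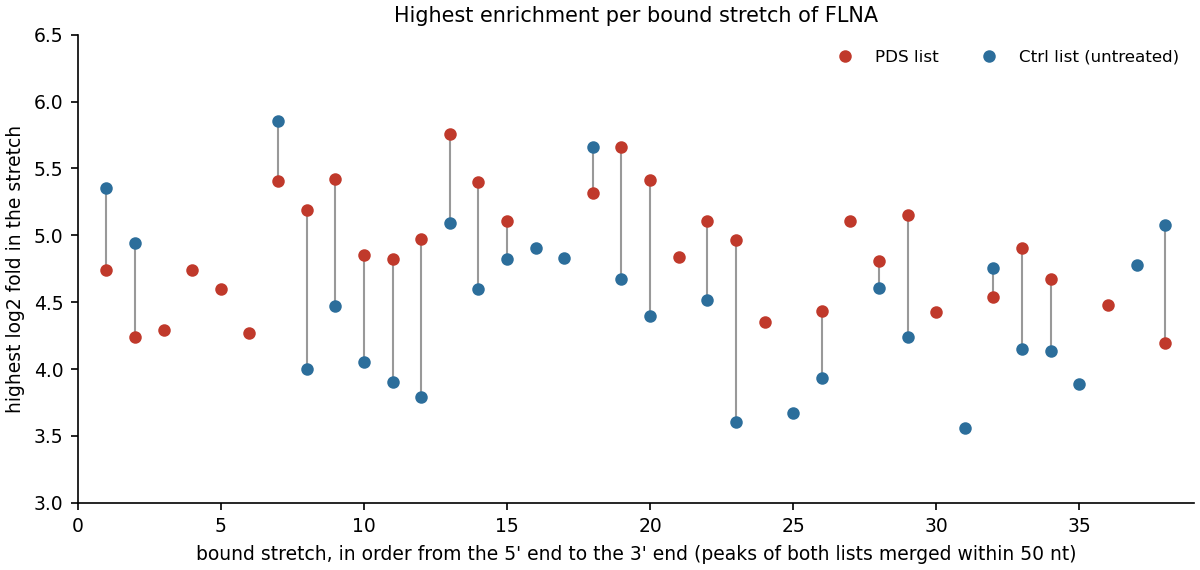
The highest log2 fold (y axis, which starts at 3) in each of 38 bound stretches of FLNA, in order from the 5′ end to the 3′ end (x axis), for the PDS list and the Ctrl list; lines join the values of a stretch held by both. In 17 of 23 joined stretches the PDS value is the higher, and the stretches at both ends go the other way.

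Merging the peaks of both lists within 50 nt gave 38 bound stretches on FLNA. Both lists were present in 23 of them, the PDS list alone in 9 and the Ctrl list alone in 6. That is 60.5% of stretches held by both, against 21.9% of 2561 stretches elsewhere. In 17 of the 23 the highest log2 fold was higher in PDS, a share of 73.9% beside 65.5% of all such stretches of the series. The median difference in the highest log2 fold, PDS minus Ctrl, was 0.66, beside 0.22 elsewhere. A highest value taken over more peaks tends to be larger, so the number of peaks bears on these comparisons. How far it did was not tested. Peaks were more numerous in PDS in 16 of the 23, equal in 4 and fewer in 3, whereas the PDS list covered more nt in 13, fewer in 9 and as many in 1. No such counts are given here for stretches elsewhere, where the PDS list had 2.07 times as many peaks. They can therefore not be read as particular to FLNA.

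The 6 stretches with a lower PDS value included those at both ends of the bound part. The 5′-most stretch, chrX:153596210-153596260, had a highest log2 fold of 4.74 in PDS and 5.36 in Ctrl. The next, chrX:153596009-153596105, had 4.24 in PDS and 4.94 in Ctrl. The 3′-most stretch, chrX:153577052-153577177, had 4.19 in PDS and 5.08 in Ctrl, a difference of -0.88, the lowest on FLNA. There 1 PDS peak covered 38 nt with a −log10 p of 29.0, and 2 touching Ctrl peaks covered 126 nt with up to 77.8. The other 3 were the stretches of the 2 pairs above and chrX:153581003-153581043, with 4.54 in PDS and 4.76 in Ctrl. The largest positive differences were in between, in stretches with more PDS than Ctrl peaks. At chrX:153585814-153585881 the highest value was 4.97 in PDS (2 peaks) and 3.61 in Ctrl (1 peak), a difference of 1.36. At chrX:153593504-153593627 it was 5.19 in PDS (6 peaks) and 4.002 in Ctrl (2 peaks), a difference of 1.19.

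**Figure D4:**
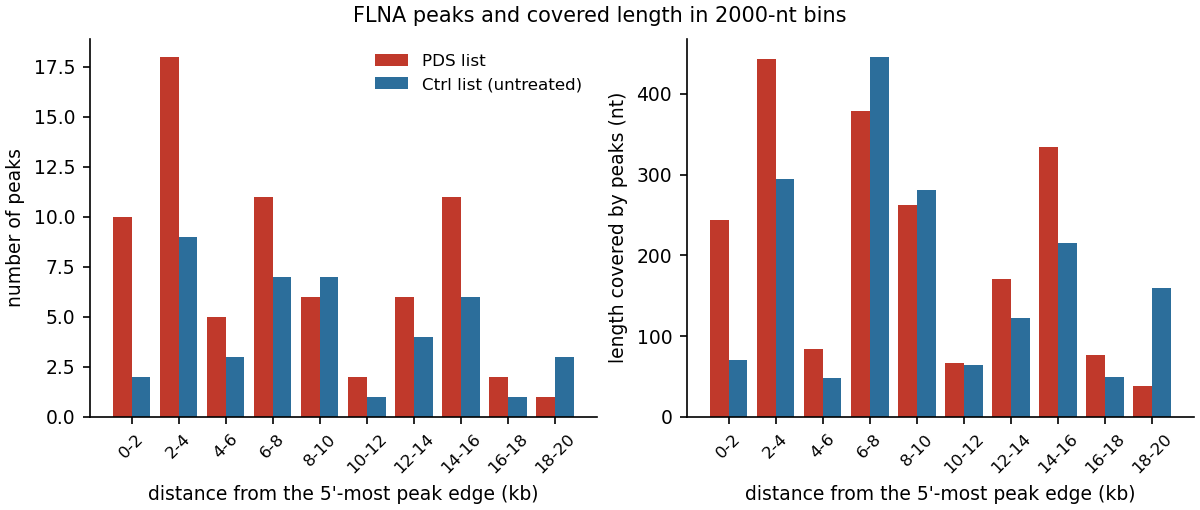
Peaks (left) and covered length in nt (right) in bins of 2000 nt, by distance from the 5′-most peak edge (x axis, kb), for the PDS list and the Ctrl list. The PDS list has most peaks 2 to 4 kb from the edge, where it has 18 and the Ctrl list 9, and has fewer than the Ctrl list at 8 to 10 kb and at 18 to 20 kb.

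Bins of 2000 nt from the 5′-most edge showed where along FLNA the lists differed. The bin from 0 to 2000 nt held 10 PDS and 2 Ctrl peaks, covering 244 nt in PDS and 71 nt in Ctrl. The bin from 2000 to 4000 nt, chrX:153592261-153594260, held the most, 18 PDS and 9 Ctrl peaks covering 443 and 294 nt. These 2 bins at the 5′ side gave 8 and 9 of the 29 additional PDS peaks. The bin from 14000 to 16000 nt followed with 5 more, 11 PDS and 6 Ctrl peaks.

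In the middle of FLNA the PDS peaks had their highest median enrichment, but covered no more than the Ctrl peaks. From 6000 to 8000 nt there were 11 PDS and 7 Ctrl peaks, but they covered 379 nt in PDS and 446 nt in Ctrl. Their median log2 fold was 5.11 in PDS and 4.82 in Ctrl. From 8000 to 10000 nt there were 6 PDS and 7 Ctrl peaks, with medians of 5.21 in PDS and 4.66 in Ctrl. At the 3′ side, from 18000 to 20000 nt, 1 PDS and 3 Ctrl peaks covered 38 and 159 nt. The stretches without a peak in either list were long in places, the longest being 2453 nt at chrX:153583361-153585813 and 1924 nt at chrX:153591058-153592981.

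**Figure D5:**
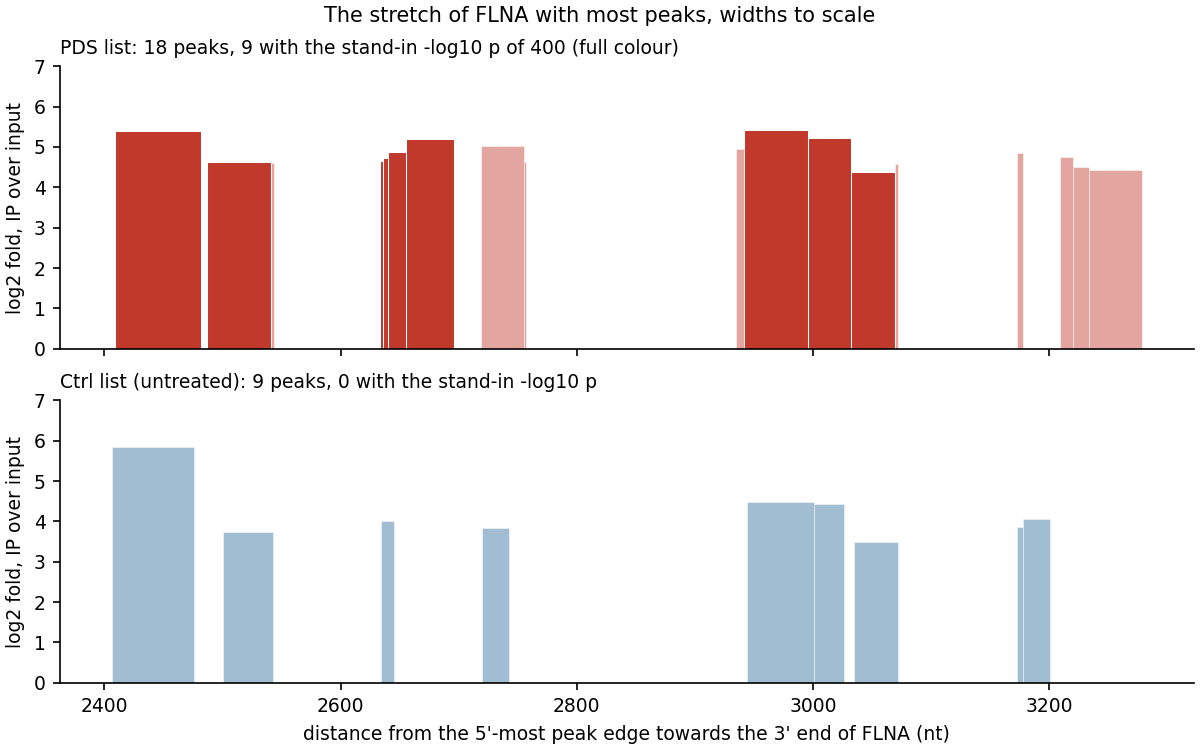
The 2000-nt bin of FLNA with most peaks, with the widths of the bars to scale along the distance from the 5′-most peak edge (x axis, nt) and the log2 fold on the y axis, for the PDS list (top, 18 peaks) and the Ctrl list (bottom, 9 peaks). Full colour marks the 9 PDS peaks with the stand-in −log10 p of 400, which sit in 3 stretches where the Ctrl list also has peaks.

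The bin with most peaks also held most of the stand-in p values, although the bin from 6000 to 8000 nt covered more nt in the Ctrl list. On FLNA 10 of 72 PDS peaks had the stand-in −log10 p of 400 (13.9%, exact 95% interval 6.87 to 24.1%), beside 2.8% of the whole PDS list. In the Ctrl list 0 of 43 did (exact 95% upper bound 8.22%), beside 0.563% of that list. Of the 10, 9 lay between 2000 and 4000 nt from the 5′-most edge. The remaining one, at chrX:153595100-153595181, had a log2 fold of 4.74, was the widest PDS member at 82 nt, and lay 904 nt from the nearest Ctrl peak.

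Within that bin the longest run of touching peaks on FLNA held 5 PDS peaks over 137 nt, at chrX:153593189-153593325. Of these 5, 3 had the stand-in value, and their log2 fold was 4.38, 5.23 and 5.42. The Ctrl list held 3 peaks there, with a −log10 p of up to 84.9, the highest of any Ctrl member, and a log2 fold of up to 4.48. A neighbouring run of 4 PDS peaks over 63 nt, at chrX:153593565-153593627, had 400 throughout and a log2 fold between 4.64 and 5.19. The Ctrl list had there 1 peak of 11 nt, at chrX:153593616-153593626, with a log2 fold of 4.002 and a −log10 p of 19.0. At the 5′ end of the bin, chrX:153593779-153593851 had 400 with a log2 fold of 5.40 in PDS, and its Ctrl partner was the strongest Ctrl member described above.

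The strongest PDS peak on FLNA lay outside that bin, at chrX:153589688-153589745, with a log2 fold of 5.76 and rank 8 in the PDS list. It overlapped a Ctrl peak of 66 nt with a log2 fold of 5.00. The second, at chrX:153587732-153587774 with 5.66, covered 2 touching Ctrl peaks of 4.31 and 4.67. The third, at chrX:153589746-153589763 with 5.44, abutted the strongest one. Of the 10 strongest PDS members all overlapped a Ctrl peak, beside 69.4% of all PDS members and 30.6% of the whole PDS list. Among the 10, 8 had a higher log2 fold than any Ctrl peak they met. Being picked for a high PDS value by itself favours that outcome. The 10 strongest Ctrl members ran down to a log2 fold of 4.83, and 7 of them overlapped a PDS peak.

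The 22 PDS peaks without a Ctrl partner had a log2 fold between 4.18 and 5.19 (median 4.55), below the 4.86 of the shared PDS peaks. Elsewhere in the PDS list the unshared peaks also had the lower median, 3.46 beside 3.90. Of these 22, 11 lay within 100 nt of a Ctrl peak and 11 further off, 4 of them by more than 500 nt. Those 4 were 3 peaks that began 1079, 1253 and 1669 nt from the 5′-most edge, with log2 folds of 4.74, 4.60 and 4.27, and chrX:153578399-153578472 near the 3′ end, with 4.48. The strongest unshared PDS peak, at chrX:153593565-153593605 with 5.19, lay 10 nt from a Ctrl peak. Such distances are not given here for unshared peaks of either list elsewhere, so counts by distance describe FLNA alone.

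The 9 Ctrl peaks without a PDS partner included both strong and weak ones. Their log2 fold ran between 3.56 and 4.94 with a median of 4.66, above the 4.36 of the 34 shared Ctrl peaks, while elsewhere in the Ctrl list the unshared peaks had the lower median, 3.42 beside 3.60. Their −log10 p was low for FLNA, between 14.8 and 32.3 with a median of 27.6, and 7 of the 9 lay below the Ctrl median on FLNA. All 9 lay above the median of the whole Ctrl list, 11.9. The 3 with log2 folds of 3.56, 3.67 and 3.89 were among the weaker Ctrl members. Of the 9, 6 lay within 100 nt of a PDS peak. The strongest was chrX:153596086-153596105 with 4.94, followed by chrX:153588428-153588463 with 4.91 and chrX:153588224-153588269 with 4.83. The last of these lay 254 nt from the nearest PDS peak. The most isolated was chrX:153577821-153577853, with a log2 fold of 4.78 and 545 nt to the nearest PDS peak.

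The same reading by nt gave a like picture. At the 1272 nt covered in both lists the median log2 fold was 5.05 in PDS and 4.48 in Ctrl, and the PDS value was the higher at 77.8% of them, beside 63.9% of such nt elsewhere. The PDS list alone covered 827 nt and the Ctrl list alone 477 nt of FLNA. Neighbouring nt share a peak and its value, so these are no independent points.

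FLNA was set beside the loci with the next most peaks. One, on the minus strand at chr8:144990307-145008211, held 48 PDS and 32 Ctrl peaks. The other, on the plus strand at chr3:184017025-184053095, held 41 PDS and 27 Ctrl peaks. Each of these loci may hold more than 1 gene. The share of Ctrl peaks that met a PDS peak was 79.1% on FLNA, 43.8% in the chromosome 8 locus (exact 95% interval 26.4 to 62.3%) and 63.0% in the chromosome 3 locus (42.4 to 80.6%). The share of PDS peaks that met a Ctrl peak was 69.4% on FLNA. It was 58.3% in the chromosome 8 locus (43.2 to 72.4%) and 53.7% in the chromosome 3 locus (37.4 to 69.3%). Both loci thus also lay above the 30.6% of the whole PDS list. These intervals cover counting error alone and neighbouring peaks are not independent, so neither overlap nor separation of intervals tests a difference between loci. The medians of log2 fold were 4.66 in PDS and 3.91 in Ctrl in the chromosome 8 locus, and 4.19 in PDS and 3.56 in Ctrl in the chromosome 3 locus. The difference of FLNA, 0.37, was smaller than theirs, 0.75 and 0.63. A log2 fold of 4 was reached by 91.7% of PDS peaks in the chromosome 8 locus and 56.1% in the chromosome 3 locus. For a log2 fold of 5 these shares were 27.1% and 17.1%. The chromosome 8 locus was thus close to the PDS shares of FLNA, 100% and 29.2%. In the Ctrl list both loci had lower shares than FLNA. The stand-in p was found in 26 of the 48 PDS peaks in the chromosome 8 locus and in 3 of the 41 in the chromosome 3 locus, so FLNA was not the locus with the largest share.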

How the data were processed

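The submitters' processing notes name cutadapt, UMI-tools, STAR and the build hg19. How peaks were called and filtered, and how replicates were merged, are not given in the sources used. The authors deposited 1 peak list per condition (chromosome, start, end, 2 values, strand; no header). Column 4 was taken as the −log10 p deposited by the authors and column 5 as the log2 fold deposited by the authors, from the values and the usual eCLIP format. Starts were counted from 0 and are printed from 1. Read depth was not analysed here.

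Members and lists were chosen with earlier results of these data known. Overlap needed 1 nt on the same strand, and merging took gaps of up to 50 nt (python 3.11.15, pandas 2.3.3, scipy 1.17.1). Peaks named are the 10 strongest of each list, those with a −log10 p of 400, one-to-one pairs, the longest runs and the densest bins of 2000 nt; others, such as unshared peaks and the weakest, were chosen after their values were seen. The overlap and merging steps were tested on simulated data: all 400 planted peaks were found, and 0 peaks differed from bedtools 2.31.1. Exons, sequences and quadruplex patterns were not analysed, for want of an hg19 genome here.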

Additional observations from a re-analysis of the deposited data

How the results depend on the processing

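Of 23 alternative values on FLNA, 16 stayed close to the one reported and 7 moved. Among the ratios and differences 0 changed direction, while shares have no direction to change. Close means within 1.5 times for ratios and differences, and within the exact 95% interval for shares. The shared percentage of PDS peaks was 48.6 with the stricter threshold (log2 fold of at least 4 and −log10 p of at least 5), 29.2 with reciprocal overlap of 50% and 84.7 within 100 nt. The shared percentage of Ctrl peaks was 48.8 with reciprocal overlap and 93.0 within 100 nt. Percentages of the whole lists at these settings are not given here, so whether FLNA still stood above them is not shown. With the stricter threshold, which leaves 72 PDS and 30 Ctrl peaks, the difference in median log2 fold was 0.13 and that of the one-to-one pairs 0.48; it removes the weaker Ctrl peaks and no PDS peak. Shortening the PDS list to the length of the Ctrl list removed no FLNA peak, so its values equalled those reported and could not move. They are counted among the 16 and say nothing about robustness. Its use for overlap, medians and pairs, 4 of the 23 values, was chosen after seeing the data. The ratio of peaks was between 1.21 and 2.40, and that of merged regions between 1.07 and 1.45. The 2.40 came from the stricter threshold, which removed Ctrl peaks only and so could only raise the ratio of peaks. No paired analysis was possible because each list gives 1 value per peak for both replicates together, which also leaves no replicate to omit. Depth is unknown, so a place without a peak cannot be called unbound.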
